A study of Mus musculus with 4 samples.

Results

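The chemokine ligand genes were described in sarcomas of W/+ mice, which carry a knock-in of the Li-Fraumeni syndrome mutation of p53 on one allele. They were taken from the deposited gene table by name, as every Ccl or Cxcl gene with a number and at most 1 further letter, together with Cx3cl1, Xcl1, Pf4 and Ppbp. This gave 41 of the 56691 genes in the table. All 4 sarcomas are labelled with the genotype p53R282W/+, in which the residue number is that of human p53. The paper numbers the mouse residue differently. The mutation is in the germline and so in tumor and host cells alike. In the ATO group (ATO 1 and ATO 2), arsenic trioxide (ATO), which binds and refolds some p53 mutants, was given at 35 mg per L drinking water from day 90. The controls (PBS 1 and PBS 2) are labelled PBS and come from mice without ATO. The histological type of each sarcoma, the age at sampling and whether each came from a separate mouse are not given in the labels, which also list for all 4 samples a culture protocol for adipocyte differentiation. The p-values below therefore measure only the spread between these samples.

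Chemokines are small secreted proteins that direct leukocytes by binding G protein-coupled receptors, and their gradients decide which cells enter a tissue. Inflammatory members are induced in macrophages, fibroblasts and endothelial cells by cytokines such as TNF and interleukin 1, largely through the transcription factor NF-kB, whereas homeostatic members such as Cxcl12 and Ccl21a are made steadily by stromal and lymphatic cells. In tumors, both stromal and malignant cells are sources. In bulk tissue, fewer cells of a type and less RNA per cell cannot be told apart.

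The sarcomas had between 15259695 and 18134000 counts each. Mitochondrial genes took 14.7% of the counts of ATO 2 and between 1.98% and 2.59% of the others. The 6 fibroblast and mesenchymal markers included Col1a1 and Vim. They summed to between 944 and 4007 FPKM (counts scaled to exon length and to the total count). As stroma also expresses such genes, the sums do not show the identity of the tumor cells. Markers of muscle and fat moved with the groups, while those of bone were high in ATO 1 only. The 5 skeletal muscle markers summed to 12440 and 890 FPKM in ATO 1 and ATO 2 against 6.10 and 105 in PBS 1 and PBS 2, and the 5 adipocyte markers to 338 and 1594 against 12.8 and 66.6, with Lep at 0 in both PBS sarcomas and Plin1 at 0 in PBS 1. The 5 osteoblast markers reached 521 FPKM in ATO 1 and at most 3.96 in the others. The part of these tissues in the ligand values was not tested.

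The main pattern among the ligands was a difference between the 2 ATO sarcomas. Of the 41 ligands, 28 passed the filter on low counts and 13 did not. By TMM-normalized CPM (a count relative to the scaled total of its sarcoma), 18 of these 28 were highest in ATO 2, where 25.5% of all genes tested were highest. ATO 1 was the highest sarcoma for 3 ligands (23.9% of all genes), PBS 1 for 3 (26.9%) and PBS 2 for 4 (23.7%). ATO 1 was the lowest sarcoma for 11 ligands, PBS 1 for 10, PBS 2 for 6 and ATO 2 for 1. Over all 17188 genes tested, the counts in the same order were 4121, 4910, 3728 and 4429. The level in ATO 2 was above that in ATO 1 for 23 of 28 ligands, against 8581 of 17188 genes. On log2(CPM + 1) the median distance between the ATO sarcomas was 2.05 for the ligands and 0.54 for all genes, and that between the PBS sarcomas was 0.87 and 0.51.

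Between the groups, 0 of the 28 ligands and 0.0% of the 17188 genes passed an adjusted p of 0.05 in edgeR's quasi-likelihood test with Benjamini-Hochberg adjustment. An unadjusted p under 0.05 was found for 5 ligands (8.51% of all genes), of which Cxcl12, Ccl8 and Ccl5 had the higher level in ATO (5.44% of all genes) and Ccl2 and Cx3cl1 the lower (3.07%). The fitted level was higher in ATO for 22 ligands and lower for 6, while 49.2% of all genes were higher. The median log2 fold change of the ligands was 1.36 and that of all genes was -0.016. Without ATO 2 the median was -0.18 and only 13 ligands were higher in ATO. Both ATO sarcomas lay above both PBS sarcomas by CPM in 7 ligands (19.7% of all genes), which were Ccl5, Ccl6, Ccl8, Ccl9, Ccl24, Cxcl12 and Cxcl14, and below in 3 (20.2%), which were Ccl2, Ccl25 and Cx3cl1. By FPKM the count was 6 above (12.8% of all genes), without Ccl24, and the same 3 below (29.6%). DESeq2 called 4 ligands, namely Cxcl12, Ccl3, Ccl2 and Cx3cl1, and 4.13% of all genes.

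**Figure D1:**
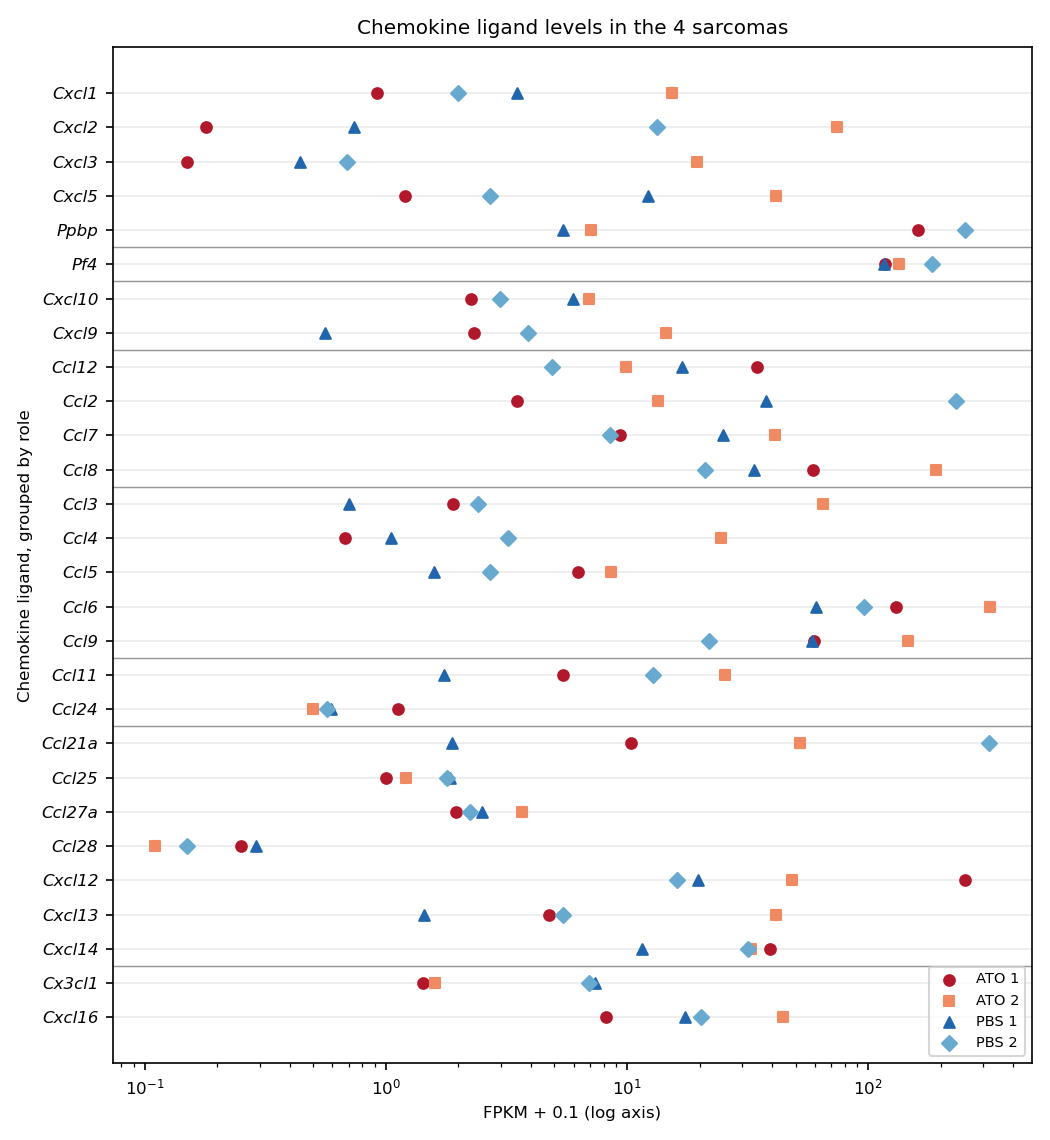
The x axis is FPKM + 0.1 on a log scale and each line on the y axis is 1 of the 28 ligands above the filter, grouped by role, with 1 point for each of the 4 sarcomas. ATO 2 holds the highest point on 17 lines, while 2696 of all 17188 genes tested were highest there by FPKM. Cxcl12, Ccl5, Ccl6 and Ccl8 have both ATO points to the right of both PBS points.

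The ligand mix also differed between sarcomas of the same group. The summed FPKM of the 41 ligands was 916 in ATO 1, 1388 in ATO 2, 445 in PBS 1 and 1267 in PBS 2, so the groups overlapped. In ATO 1 the leading ligand was Cxcl12 with 27.4% of the ligand FPKM, ahead of Ppbp (17.6%) and Ccl6 (14.3%). In ATO 2 it was Ccl6 with 23.1%, ahead of Ccl8 (13.8%) and Ccl9 (10.5%). In PBS 1 it was Pf4 with 26.1%, and in PBS 2 it was Ccl21a with 24.9%, followed by Ppbp (19.9%) and Ccl2 (18.3%). Each sarcoma thus had a different leading ligand, and the first 3 held between 47.4% and 63.2% of the ligand FPKM. Ccl3, Ccl4, Ccl5, Ccl6 and Ccl9, the MIP-1 and related CC ligands, made up 40.7% of the mix in ATO 2 and 9.94% in PBS 2, and the homeostatic ligands 33.6% in ATO 1 and 8.66% in PBS 1.

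**Figure D2:**
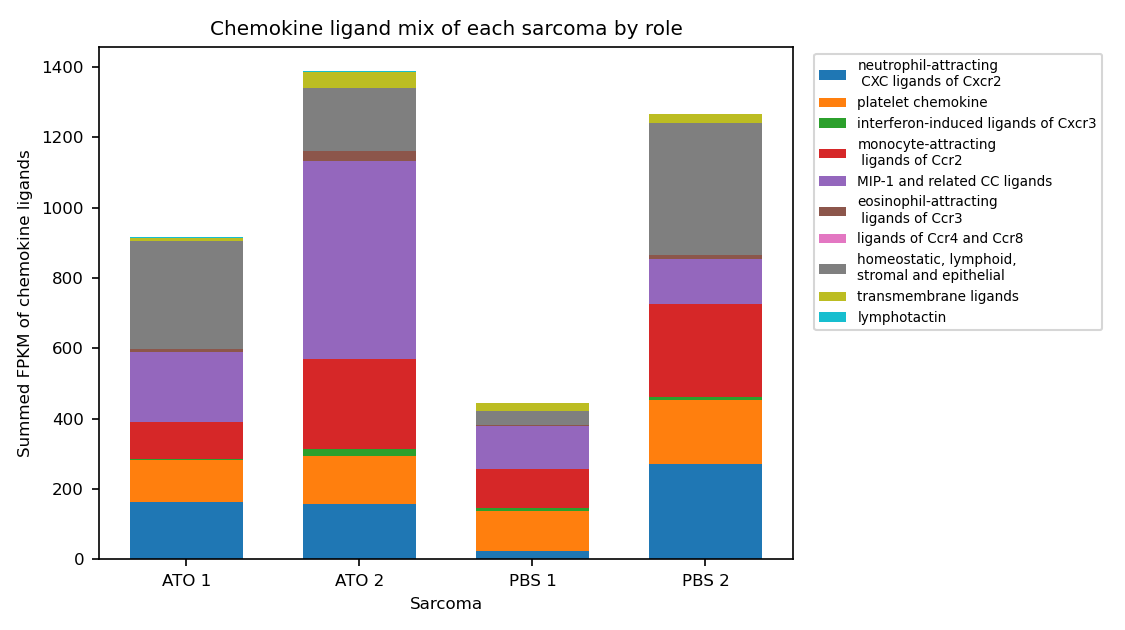
Stacked bars give the summed FPKM (y axis) of the 41 ligands in each of the 4 sarcomas (x axis), with colors for their roles. PBS 1 has the lowest total, 445 FPKM, and the block of MIP-1 and related CC ligands is tallest in ATO 2, at 565 FPKM.

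The CXC ligands of Cxcr2 recruit neutrophils. Of the 6, 5 passed the filter and 4 of them were highest in ATO 2. Cxcl1 (chr5:90891241-90893115 in the GENCODE M21 annotation of GRCm38, + strand) stood at 1.54 CPM in ATO 1, 35.1 in ATO 2, 5.84 in PBS 1 and 3.23 in PBS 2. Cxcl2 (chr5:90903871-90905938, + strand), the mouse MIP-2, was at 0.165, 186.7, 1.21 and 24.7 CPM in the same order, from 3, 2330, 23 and 490 counts. Cxcl3 (chr5:90786103-90789600, + strand) was at 0.165, 82.9, 1.11 and 1.86 CPM, from 3, 1034, 21 and 37 counts. For these 3 genes ATO 1 was the lowest and ATO 2 the highest of all sarcomas, with both PBS sarcomas in between, so the spread within the ATO group enclosed the control values. Cxcl5, which is made by epithelial and stromal cells, had the same highest and lowest sarcoma, at 2.03, 94.7, 20.7 and 4.38 CPM. The log2 fold changes of the 4 genes lay between 1.94 for Cxcl5 and 4.80 for Cxcl3, with standard errors between 1.44 for Cxcl1 and 2.68 for Cxcl2, and turned to values between -1.55 (Cxcl1) and -6.23 (Cxcl2) without ATO 2. Cxcl15, a lung-restricted member, had 16 counts in ATO 2 and 0 in the others, which allows up to 0.164 CPM in ATO 1.

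The promoters of Cxcl1, Cxcl2 and Cxcl3 are shown because these neighbors had the same highest (ATO 2) and lowest (ATO 1) sarcoma and share a sequence element. Each line gives the 120 bases before the RefSeq start site on GRCm38.p6, 5′ to 3′ on the gene's strand, with capitals for matches to the NF-kB motif and, in Cxcl3, also for the TATA box:
Cxcl1, chr5:90891125-90891244, + strand: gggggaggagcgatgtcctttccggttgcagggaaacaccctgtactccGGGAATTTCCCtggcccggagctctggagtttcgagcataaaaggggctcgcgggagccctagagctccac
Cxcl2, chr5:90903779-90903898, + strand: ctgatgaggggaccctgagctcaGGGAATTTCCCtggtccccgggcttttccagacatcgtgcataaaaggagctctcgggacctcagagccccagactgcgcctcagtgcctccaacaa
Cxcl3, chr5:90785981-90786100, + strand: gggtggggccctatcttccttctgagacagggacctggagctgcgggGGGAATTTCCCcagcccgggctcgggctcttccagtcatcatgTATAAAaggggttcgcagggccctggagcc
In all 3 the run in capitals held GGGAATTTCC, starting at -71 in Cxcl1, -97 in Cxcl2 and -73 in Cxcl3 relative to the start site, and a second match to the NF-kB motif shifted by 1 base. Among the 32851 RefSeq promoter windows of the same length (250 bases before to 50 after the start), 29 (0.0883%) held GGGAATTTCC on either strand, and these 3 genes were the only ligands among them. The NF-kB motif as such was found in 4.51% of all windows and in 7 of the 36 windows of the 30 ligand genes with an entry (19.4%), namely those of Cxcl1, Cxcl2, Cxcl3, Cxcl10, Ccl9, Ccl20 and Ccl27a. GGGAATTTCC was itself taken from the Cxcl1 promoter, as the first NF-kB match there, so its presence in Cxcl1 was fixed in advance. Its share of all windows is descriptive only. A match describes the sequence and is not evidence of binding.

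Ppbp and Pf4 are stored in platelet granules and made by megakaryocytes, and Ppbp is the precursor of a Cxcr2 ligand. Ppbp (chr5:90768518-90770063, + strand) was at 173.9 CPM in ATO 1, 9.30 in ATO 2, 5.31 in PBS 1 and 248 in PBS 2. A high and a low sarcoma thus stood in each group, and the log2 fold change was -0.47 ± 1.95 (SE), with an adjusted p of 0.961 in edgeR. Pf4, which lies beside it (chr5:90772435-90773383, + strand), was at 84.4, 118.6, 76.8 and 119.5 CPM and varied least among the 5 ligands with the highest mean FPKM, with a log2 fold change of 0.05 ± 0.44 (SE) and an adjusted p of 0.983 in edgeR. The platelet receptor genes had the same high and low sarcomas as Ppbp and not those of Pf4. Itga2b, the platelet integrin subunit, was at 87.3 and 206 CPM in ATO 1 and PBS 2 and at 9.38 and 7.10 in ATO 2 and PBS 1, and the 4 platelet and megakaryocyte markers together summed to 37.7 and 93.3 FPKM against 1.86 and 2.05, with none at 0. Pf4 is known to be made also by macrophages. The 7 macrophage markers summed to 949, 1173, 1085 and 434 FPKM in ATO 1, ATO 2, PBS 1 and PBS 2. Their sum was thus lowest in PBS 2, where Pf4 was highest. The part of either cell type in these values was not tested.

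The interferon-induced ligands of Cxcr3 attract T cells and NK cells. Cxcl9 was at 6.70 CPM in ATO 1, 52.97 in ATO 2, 1.26 in PBS 1 and 10.4 in PBS 2, and Cxcl10 at 4.83, 18.9, 12.1 and 5.85. Both were highest in ATO 2 and overlapped between groups, with log2 fold changes of 2.35 ± 1.41 (SE) and 0.40 ± 0.86 (SE). Cxcl11 had between 0 and 7 counts and did not pass the filter. The Cxcl10 promoter is shown because it held both an interferon-stimulated response element (ISRE, searched as GAAANNGAAA on both strands) and NF-kB motifs, all in capitals in the 220 bases before its RefSeq start on GRCm38.p6:
Cxcl10, chr5:92348890-92349109, - strand: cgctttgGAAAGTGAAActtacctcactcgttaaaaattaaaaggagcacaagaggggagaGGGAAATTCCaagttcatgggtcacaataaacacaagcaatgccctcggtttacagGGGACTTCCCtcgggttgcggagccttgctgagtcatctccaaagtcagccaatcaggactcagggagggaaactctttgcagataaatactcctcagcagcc
The ISRE began at -213 and the NF-kB motifs at -159 and -103. The ISRE was found in 3.44% of all windows and in those of 3 ligands, Cxcl10, Cxcl14 and Ccl19. The 3 ligands of Cxcr3 together took between 0.483% (ATO 1) and 1.54% (ATO 2) of the ligand FPKM.

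Of the 4 genes listed here as monocyte-attracting ligands of Ccr2, 3 had a higher and 1 a lower fitted level in ATO. Of these, 0 passed an adjusted p of 0.05 in edgeR. The grouping by receptor was taken from a list and was not tested. Ccl2, the main monocyte attractant known as MCP-1 (chr11:82035571-82037453, + strand), was at 3.85 CPM in ATO 1, 18.6 in ATO 2, 39.5 in PBS 1 and 239 in PBS 2, from 70, 232, 750 and 4750 counts. Both ATO sarcomas lay below both PBS sarcomas, although the PBS sarcomas themselves were far apart. The log2 fold change was -3.64 ± 1.24 (SE), with an unadjusted p of 0.0353 and an adjusted p of 0.570 in edgeR and an adjusted p of 0.0287 in DESeq2. Without PBS 2 the log2 fold change was -1.82. Ccl8, also called MCP-2 (chr11:82115185-82116799, + strand), had both ATO sarcomas above both PBS sarcomas, at 30.0 and 119.8 CPM in ATO 1 and ATO 2 against 15.7 and 9.67 in PBS 1 and PBS 2. Its log2 fold change was 2.56 ± 0.80 (SE), with an unadjusted p of 0.0265 and an adjusted p of 0.570 in edgeR and an adjusted p of 0.0740 in DESeq2, and without ATO 2 it was 1.25. The members in between overlapped. Ccl7 (MCP-3) was at 7.36, 40.2, 18.4 and 6.10 CPM in ATO 1, ATO 2, PBS 1 and PBS 2, and Ccl12 (MCP-5) at 18.5, 6.41, 8.26 and 2.32, so that Ccl12 was highest in ATO 1 where Ccl7 was highest in ATO 2. The log2 fold changes were 0.95 ± 1.01 (SE) for Ccl7 and 1.24 ± 0.93 (SE) for Ccl12. These 4 genes lie within the same stretch of chromosome 11, and Ccr2 itself was at 48.7, 62.0, 27.5 and 132 CPM.

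The MIP-1 and related CC ligands attract monocytes, T cells and other leukocytes, and all 5 were highest in ATO 2. Ccl6 (chr11:83587882-83593087, - strand), a myeloid chemokine of rodents, had the highest level, at 131 FPKM in ATO 1, 321 in ATO 2, 60.9 in PBS 1 and 96.0 in PBS 2. By CPM, at 234, 704, 100.5 and 156, the groups did not overlap either, and the log2 fold change was 1.87 ± 0.72 (SE), with an adjusted p of 0.585 in edgeR. Ccl9 (chr11:83572919-83578636, - strand), the neighbor of Ccl6 and likewise made by myeloid cells, was at 181, 544, 163 and 60.3 CPM. ATO 1 was thus only slightly above PBS 1, and the log2 fold change was 1.70 ± 0.82 (SE), with an adjusted p of 0.630 in edgeR. Ccl5 (RANTES, chr11:83525778-83530518, - strand), made mainly by T cells and NK cells, was low in all sarcomas, at 5.88 and 9.94 CPM in ATO 1 and ATO 2 against 1.32 and 2.27 in PBS 1 and PBS 2. It was the ligand of this class with the smallest distance between the ATO sarcomas, and its log2 fold change was 2.14 ± 0.72 (SE), with an unadjusted p of 0.0331 and an adjusted p of 0.570 in edgeR and an adjusted p of 0.126 in DESeq2. The T cell marker Cd4 had the same order, at 20.1 and 21.3 CPM against 1.58 and 4.23, while the 6 T cell markers summed to 11.5 and 8.66 FPKM against 1.13 and 8.81, with Cd3g at 0 in PBS 1.

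Ccl3 and Ccl4 (MIP-1 alpha and beta), which macrophages and other leukocytes release on activation, were high in ATO 2. Ccl3 (chr11:83647844-83649355, - strand) was at 1.37 CPM in ATO 1, 61.0 in ATO 2, 0.421 in PBS 1 and 1.61 in PBS 2, from 25, 761, 8 and 32 counts. ATO 1 lay between the PBS sarcomas, so the groups overlapped, and the log2 fold change of 4.93 ± 1.94 (SE), the largest of the ligands tested, was 0.44 without ATO 2. Its adjusted p was 0.586 in edgeR and 0.0197 in DESeq2. Ccl4 (chr11:83662584-83664683, + strand) was at 0.385, 19.6, 0.579 and 1.86 CPM, and its log2 fold change of 3.02 ± 1.82 (SE) turned to -1.64 without ATO 2. The Ccl9 promoter is shown because Ccl9 was among the 2 most highly expressed ligands of this class, by its mean FPKM, and its promoter was the only ligand window of the chromosome 11 genes with an NF-kB motif. The 120 bases before its RefSeq start on GRCm38.p6 are given with the NF-kB motif (from -35) and TATAAA, overlapped by its reverse complement (from -94), in capitals:
Ccl9, chr11:83578637-83578756, - strand: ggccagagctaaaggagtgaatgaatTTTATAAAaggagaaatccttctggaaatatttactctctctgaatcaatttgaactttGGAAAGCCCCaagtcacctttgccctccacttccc
TATAAA was found on either strand in 13.6% of all windows and in 11 of the 36 ligand windows (30.6%).

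The ligands of Ccr3 attract eosinophils. Ccl11 (eotaxin-1) was at 5.77 CPM in ATO 1, 33.7 in ATO 2, 1.63 in PBS 1 and 12.5 in PBS 2, with a log2 fold change of 1.48 ± 1.29 (SE), and the groups overlapped. Ccl24 (eotaxin-2) had between 8 and 24 counts. At 1.32 and 0.641 CPM against 0.579 and 0.554 the groups did not overlap, but by FPKM ATO 2 was the lowest sarcoma, and the log2 fold change was 0.79 ± 0.77 (SE), with an adjusted p of 0.802 in edgeR. Ccl26 had 2 counts in ATO 2 and 0 in the others. Of the eosinophil genes, Siglecf was at 0.494 and 0.641 CPM in ATO 1 and ATO 2 against 0.894 and 5.29 in PBS 1 and PBS 2, with both ATO sarcomas below, and Prg2 and Epx were at most 3.53 and 0.151 CPM, while the mast cell protease Mcpt4 was at 8.41 and 19.7 CPM in ATO 1 and ATO 2 against 0.105 and 0.705. The 3 genes listed as Ccr4 and Ccr8 ligands, which attract regulatory and type 2 helper T cells, were near the limit of the counts. Ccl22 had 10, 20, 7 and 6 counts in ATO 1, ATO 2, PBS 1 and PBS 2, Ccl17 had 11, 1, 0 and 3, and Ccl1 had 0 in every sarcoma, which allows up to 0.239 CPM in ATO 2. None of these 3 passed the filter.

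Among the homeostatic ligands, Cxcl12 had the largest fold change between the groups. Cxcl12 (SDF-1, chr6:117168535-117181367, + strand) is the ligand of Cxcr4 and is made by mesenchymal, endothelial and bone marrow stromal cells. It was at 2043 CPM in ATO 1, 484 in ATO 2, 147 in PBS 1 and 119 in PBS 2, from 37197, 6038, 2797 and 2355 counts. Both ATO sarcomas were above both PBS sarcomas, and the PBS sarcomas were close to each other (132.9 ± 20.1 CPM, mean ± SD, n = 2). The log2 fold change was 3.25 ± 0.91 (SE), with an unadjusted p of 0.0181 and an adjusted p of 0.570 in edgeR and an adjusted p of 0.007 in DESeq2. Without ATO 1, the sarcoma with the highest muscle and osteoblast markers, it was 1.85, and without ATO 2 it was 3.95. Its receptors were in another order, with Cxcr4 at 46.6, 132.6, 46.9 and 97.9 CPM and the scavenging receptor Ackr3 at 23.4, 69.4, 33.0 and 77.2. Cxcl14, an epithelial and stromal chemokine, was at 70.9 and 72.8 CPM in ATO 1 and ATO 2 against 19.2 and 52.4 in PBS 1 and PBS 2. Its ATO sarcomas were nearly equal, and the log2 fold change was 1.01 ± 0.58 (SE), with an adjusted p of 0.675 in edgeR. Cxcl13, the B cell attractant, was at 5.33, 58.3, 1.42 and 5.54 CPM, and its log2 fold change of 3.19 ± 1.37 (SE) was 0.62 without ATO 2.

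Ccl21a, which draws dendritic cells and T cells into lymphatic vessels through Ccr7, had the widest range between the PBS sarcomas of any ligand. Ccl21a (chr4:42772860-42773993, - strand) was at 8.95 CPM in ATO 1, 55.4 in ATO 2, 1.42 in PBS 1 and 249 in PBS 2, from 163, 691, 27 and 4938 counts. The log2 fold change was -1.96 ± 2.09 (SE), with an adjusted p of 0.821 in edgeR, and it was 4.49 without PBS 2. The order of the sarcomas was that of Prox1, the lymphatic transcription factor, at 2.53, 9.94, 0.684 and 42.8 CPM, and of Lyve1 at 23.9, 66.3, 20.1 and 449. Pdpn, which other cell types also express, had another order, at 8.63, 191, 121 and 101 CPM. The 4 lymphatic markers summed to 17.7 and 110 FPKM in ATO 1 and ATO 2 and to 83.5 and 277 in PBS 1 and PBS 2, with none at 0, and their part in the Ccl21a level was not tested. Ccl21b and Ccl21d had 0 counts in all sarcomas. Their transcripts are 99.5% and 99.3% identical to that of Ccl21a, so the division of reads between the 3 genes is uncertain, as it is for Ccl27a, at between 4.40 and 10.4 CPM, and Ccl27b, at 0, which are 99.3% identical. Ccl25, the thymic and gut chemokine (chr8:4325210-4360020, + strand), was at 6.70 and 10.1 CPM in ATO 1 and ATO 2 against 11.9 and 11.4 in PBS 1 and PBS 2, with a log2 fold change of -0.48 ± 0.54 (SE) and an adjusted p of 0.831 in edgeR. The epithelial chemokine Ccl28 had between 1 and 16 counts and a log2 fold change of -0.34 ± 1.28 (SE). Ccl19, the other ligand of Ccr7, had between 0 and 11 counts, Ccl20 between 0 and 5 and Cxcl17 between 0 and 12.

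The transmembrane ligands carry their chemokine domain on a mucin stalk and can be shed. Cx3cl1 (fractalkine, chr8:94772009-94782427, + strand), which endothelial and epithelial cells and neurons present to Cx3cr1 on monocytes, was at 5.16 CPM in ATO 1, 7.21 in ATO 2, 26.2 in PBS 1 and 24.5 in PBS 2. Both ATO sarcomas were below both PBS sarcomas, and the replicates of each group were close (6.19 ± 1.45 against 25.3 ± 1.21 CPM, mean ± SD, n = 2). Its log2 fold change of -2.03 ± 0.48 (SE) had the smallest unadjusted p of the ligands in edgeR (0.00927), with an adjusted p of 0.570 in edgeR and 0.0386 in DESeq2, and lay between -2.29 and -1.74 in all the alternative fits. The 5 endothelial markers summed to 74.2 and 150.5 FPKM in ATO 1 and ATO 2 and to 102 and 935 in PBS 1 and PBS 2, with none at 0, and their part in the Cx3cl1 level was not tested. The receptor Cx3cr1 was at 37.7, 6.57, 76.7 and 35.3 CPM, with a log2 fold change of -1.34. Cxcl16, the scavenger receptor ligand of Cxcr6, was at 24.3, 163, 48.2 and 55.4 CPM, and its log2 fold change of 0.85 ± 0.91 (SE) turned to -1.08 without ATO 2. Xcl1 (lymphotactin), the NK and T cell ligand of Xcr1, had between 0 and 4 counts.

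**Figure D3:**
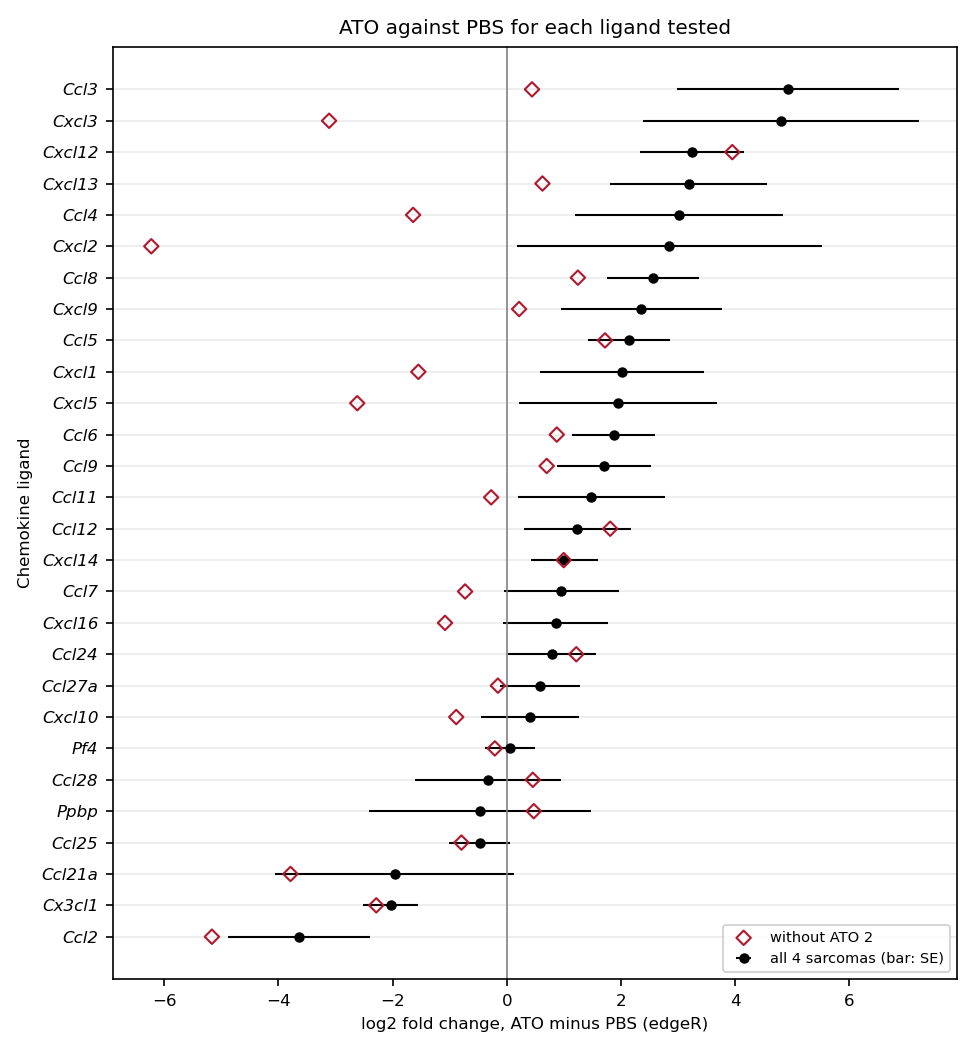
Filled points give the log2 fold change of ATO minus PBS (x axis) from edgeR for each of the 28 ligands (y axis), with bars of 1 standard error, and open diamonds give the value without ATO 2. Cxcl12, Ccl8, Ccl5, Ccl2 and Cx3cl1 keep their side of 0 without ATO 2, while Cxcl1, Cxcl2, Cxcl3, Cxcl5 and Ccl4 change theirs. The former had groups that did not overlap by CPM, and the latter were lowest in ATO 1. Both outcomes thus follow from the order of the sarcomas.

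The dependence on ATO 2 differed between ligands. Without it, 11 of the 22 ligands with a higher fitted level in ATO turned to a lower one, and 2 of the 6 lower ones, Ppbp and Ccl28, turned to a higher one. The 11 were Cxcl1, Cxcl2, Cxcl3, Cxcl5, Cxcl10, Cxcl16, Ccl4, Ccl7, Ccl11, Ccl27a and Pf4. Without ATO 1, by contrast, 0 of the 28 changed direction, without PBS 1 it was 2 and without PBS 2 it was 3. Changes of direction were not counted over all genes. They largely restate the order of the sarcomas. A ligand whose groups do not overlap by CPM keeps its direction, and a ligand lowest in ATO 1 turns lower without ATO 2. The share of all genes higher in ATO was 49.2% with all sarcomas and 46.2% without ATO 2. In the single pairs of sarcomas, the median log2 ratio of the ligands was 1.80 for ATO 2 over PBS 1 and 1.64 for ATO 2 over PBS 2, but 0.14 for ATO 1 over PBS 1 and -0.36 for ATO 1 over PBS 2.

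Chemokine genes lie in clusters that arose by duplication, and the pattern was drawn by chromosome. Of the 12 ligand genes on chromosome 11, 11 were tested and 9 of them were highest in ATO 2 (25.5% of all genes). The exceptions were Ccl2, highest in PBS 2, and Ccl12, highest in ATO 1, although they lie among the others. Of the 13 on chromosome 5, 10 were tested and 7 were highest in ATO 2 (25.5% of all genes). There the exceptions were the neighbors Ppbp and Pf4, and Ccl24, which lies far from the CXC cluster. Within a distance of a few genes on chromosome 5, Ppbp thus had a low and Cxcl5, Cxcl3, Cxcl1 and Cxcl2 a high level in ATO 2.

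**Figure D4:**
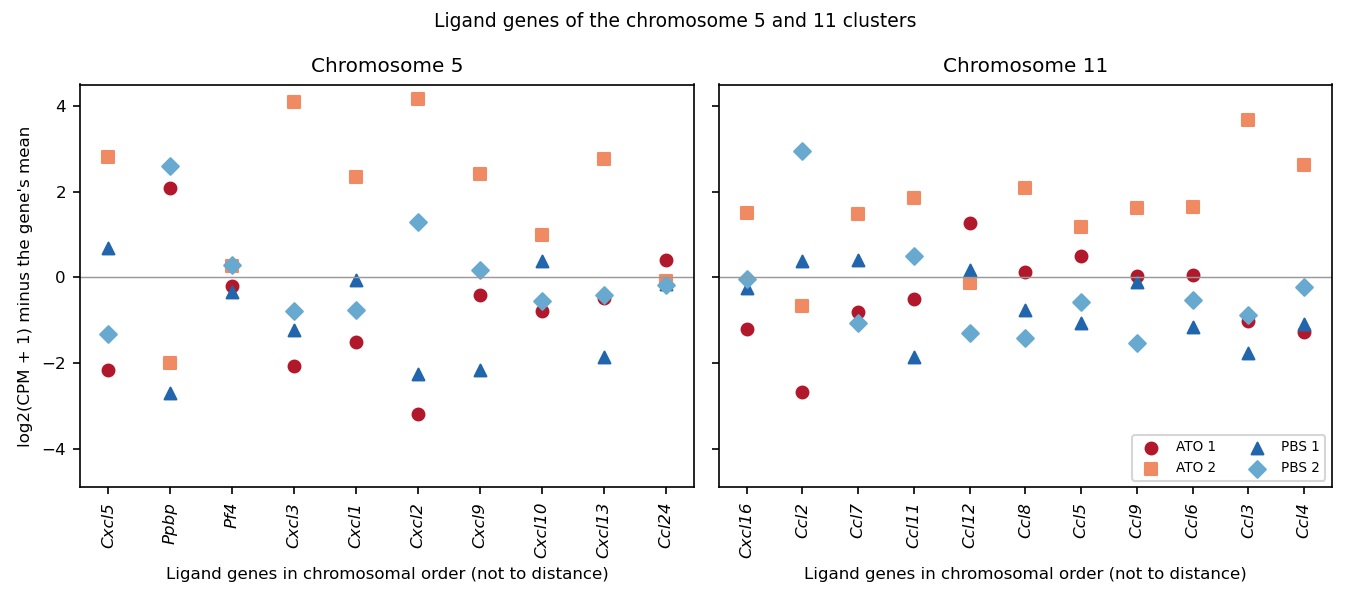
Each point is log2(CPM + 1) minus the mean of the gene over the 4 sarcomas (y axis), for the 10 ligands tested on chromosome 5 and the 11 on chromosome 11 in chromosomal order (x axis, not to distance). The ATO 2 points are uppermost for 7 and 9 genes, while Ccl2 is uppermost in PBS 2 and Ppbp in PBS 2 and ATO 1.

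The receptors had no common direction. Of 22 chemokine receptor genes read, 16 were tested, 0 passed an adjusted p of 0.05 (0.0% of all genes) or an unadjusted p of 0.05 (8.51%) in edgeR, and 0 were called by DESeq2 (4.13%). Their fitted level was higher in ATO for 8 and lower for 8, with a median log2 fold change of -0.10, which was -0.66 without ATO 2 and 1.32 without PBS 2. Both ATO sarcomas were above both PBS sarcomas in 4 by CPM, namely Ccrl2, Ccr10, Ackr1 and Cxcr3 (19.7% of all genes), and below in 0 (20.2%). By FPKM the count was 4 above (12.8%) and 1 below (29.6%), which was Cx3cr1. Ccrl2, a receptor-like protein that presents chemerin, was at 12.3 and 40.3 CPM against 1.37 and 8.42 (log2 fold change 2.42), and Ccr10, the receptor of Ccl27a and Ccl28, at 0.769 and 4.65 against 0.316 and 0.454 (2.78). Ackr1, which carries chemokines across venules, was at 15.1 and 29.5 CPM against 1.79 and 11.8 (1.71), and Cxcr3 at 3.24 and 3.53 against 0.473 and 2.47 (1.20). The receptors with the highest mean FPKM were Cxcr4 (43.5), Ccr1 (34.3) and Cxcr2 (27.3). Ccr1, a receptor of Ccl3, Ccl5, Ccl6 and Ccl9, was at 58.0, 100.7, 67.1 and 158 CPM in ATO 1, ATO 2, PBS 1 and PBS 2, so it was highest in PBS 2, whereas these ligands were highest in ATO 2.

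The Cxcr2 ligands and the neutrophil genes had their highest levels in different sarcomas. Cxcr2, the receptor on neutrophils, was at 7.86 CPM in ATO 1, 54.5 in ATO 2, 10.1 in PBS 1 and 244 in PBS 2, and the neutrophil marker Csf3r at 30.4, 247, 36.9 and 703. Of the 6 neutrophil markers, only Csf3r was higher in ATO 2 than in ATO 1. S100a9, which had the highest mean FPKM of them, was at 530, 358, 37.8 and 1570 CPM. All 6 neutrophil markers were highest in PBS 2, where they summed to 5970 FPKM, against 894 in ATO 2, 1581 in ATO 1 and 148 in PBS 1, with none at 0. In PBS 2, Cxcl2 was at 24.7 CPM, and Cxcl1, Cxcl3 and Cxcl5 were at most 4.38 CPM. PBS 2 was also the highest sarcoma for Ppbp.

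**Figure D5:**
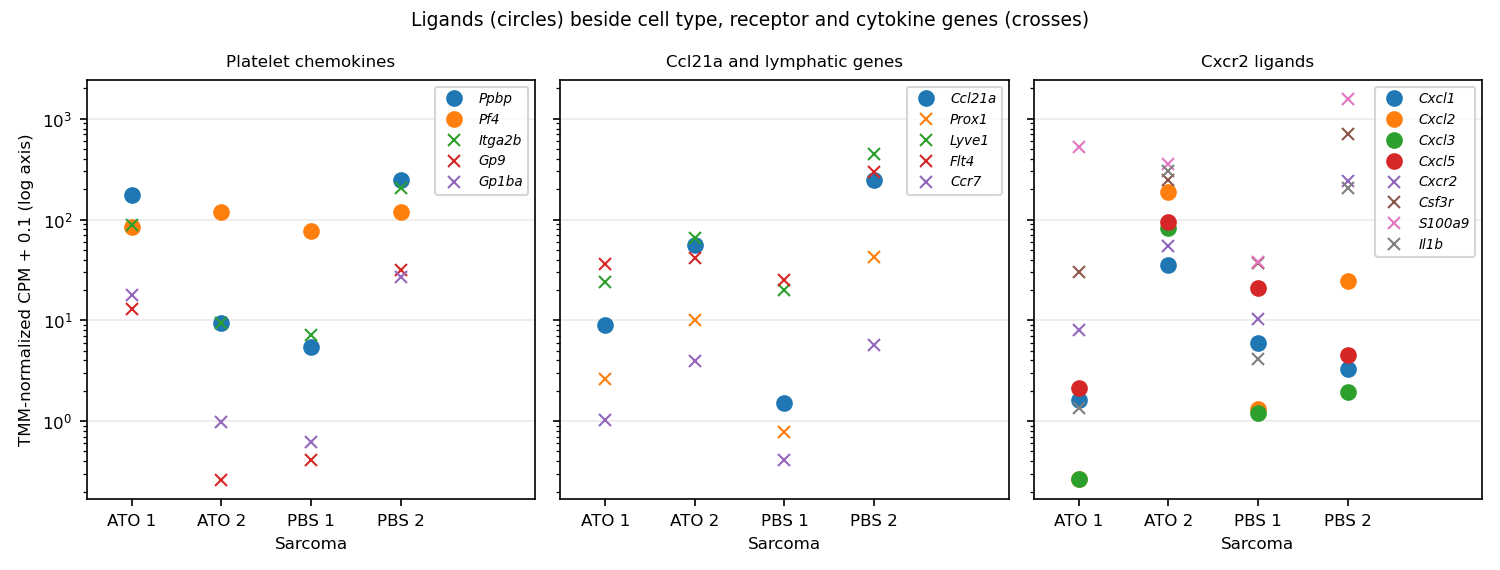
The y axis is CPM + 0.1 on a log scale for ligands (circles) and other genes (crosses) in the 4 sarcomas (x axis), for platelet chemokines with platelet receptors, Ccl21a with lymphatic genes and Ccr7, and the Cxcr2 ligands with Cxcr2, Csf3r, S100a9 and Il1b. Ppbp is high where Itga2b is high (ATO 1 and PBS 2), Ccl21a and Prox1 are highest in PBS 2, and Cxcl2 is highest in ATO 2 while Csf3r is highest in PBS 2.

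Cytokines that induce chemokines, with their signal carriers, were read beside the ligands. Of 19 genes, 14 were tested and 1 had an unadjusted p under 0.05 in edgeR (8.51% of all genes). This was Il1a (interleukin 1 alpha), at 2.69 and 39.7 CPM in ATO 1 and ATO 2 against 0.421 and 1.16 in PBS 1 and PBS 2, with a log2 fold change of 4.73 ± 1.54 (SE), an adjusted p of 0.570 in edgeR and an adjusted p of 0.007 in DESeq2. Tnf was at 1.21, 30.4, 0.999 and 4.84 CPM in ATO 1, ATO 2, PBS 1 and PBS 2, with its high value in ATO 2 like Ccl3 and Ccl4. Il1b was high in both ATO 2 and PBS 2, at 1.26, 302, 4.05 and 206 CPM, and Il6 had its higher values in the same sarcomas, at 1.48, 14.2, 0.736 and 5.59. Il17a, an inducer of Cxcl1 and Cxcl5 in stromal cells, was at 3.37 CPM in ATO 2 and had 0 counts elsewhere. The NF-kB subunit Rela was at 57.4 and 83.0 CPM in ATO 1 and ATO 2, below the 113 and 99.4 of PBS 1 and PBS 2, and its inhibitor and target Nfkbia was at 68.5, 219, 75.1 and 140.5. Whether any of these genes has a part in the ligand levels was not tested.

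Ptprc (CD45), on all leukocytes, was at 110 CPM in ATO 1, 237 in ATO 2, 69.3 in PBS 1 and 348 in PBS 2, so that Ptprc was highest in PBS 2 while 18 of the 28 ligands tested were highest in ATO 2. By CPM, 5 of the 7 macrophage markers were highest in ATO 2 (25.5% of all genes). Among them were Adgre1 and Cd68, at 214 and 342 CPM in ATO 2 and 38.3 and 92.0 in PBS 2. The other 2, Csf1r and Mrc1, were highest in ATO 1 (23.9% of all genes). By FPKM, 3 of the 7 were highest in ATO 2, 2 in ATO 1 and 2 in PBS 1. Of all 17188 genes tested, 2696, 3980 and 5315 were highest by FPKM in these sarcomas. All 7 macrophage markers had a higher fitted level in ATO (49.2% of all genes), with a median log2 fold change of 0.82. By CPM, PBS 2 was the lowest sarcoma for 6 of them (3728 of 17188 genes). PBS 1 was above ATO 1 for Adgre1, Cd68, C1qa and C1qb and below it for Csf1r, Fcgr1 and Mrc1. Both ATO sarcomas lay above both PBS sarcomas by CPM in 2 of the 7, Csf1r and Fcgr1 (19.7% of all genes). By FPKM, Fcgr1 remained (12.8% of all genes). The B cell, NK cell and dendritic cell markers summed to at most 11.4, 4.61 and 16.3 FPKM, each highest in PBS 2. These lists were read as levels, and their part in the ligand values was not tested.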

How the data were processed

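RNA-seq was performed on 4 sarcomas, 2 per treatment group by their labels. The authors trimmed the reads with cutadapt 1.9.1, aligned them to the mouse genome with HISAT2 2.0.1 and deposited raw read counts per gene made with HTSeq. The authors also deposited FPKM, the count scaled to exon length and total count. Whether HTSeq counted by strand is not given in the sources used here, and genes that overlap are therefore uncertain. Only 4 of the 41 ligands had in the table their position in GENCODE M21 (GRCm38), which the text gives by identifier. RefSeq promoter windows were on GRCm38.p6.

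R 4.3.3 with edgeR 4.0.16 was used to test the counts of all genes, after filterByExpr and TMM normalization, by a two-sided quasi-likelihood F-test with trended dispersion and with Benjamini-Hochberg adjustment over 17188 genes and a threshold of 0.05. The filter judges each gene by all 4 sarcomas, and genes high in a single sarcoma can fail it. A count of 0 allows up to 3 counts, which is between 0.151 and 0.239 CPM by sarcoma and covers counting error only. The TMM factors were 1.01, 0.822, 1.09 and 1.11 for ATO 1, ATO 2, PBS 1 and PBS 2. Of the genes tested, at most 0.855% had equal counts in any 2 sarcomas.

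The ligands and the receptor, cytokine and marker lists were chosen with earlier results of these data known, and 1 gene of the receptor list is not reported here. Every ligand above the filter was named, with full statistics for those with an unadjusted p under 0.05, those whose groups did not overlap by CPM and the 5 with the highest mean FPKM. From the other lists, genes with an unadjusted p under 0.05, genes whose groups did not overlap and up to 3 with the highest mean FPKM were eligible, and further genes were named after their values were seen. The fit was repeated without a filter, with DESeq2 size factors, with the replicate number as a block and without each sarcoma, and in DESeq2 1.42.0 and, on log2(FPKM + 1), in limma 3.58.1. The use of FPKM for overlap between groups was chosen after seeing the data. The code was tested on simulated data, and figures were drawn in Python 3.11.15 with matplotlib 3.10.9.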

Additional observations from a re-analysis of the deposited data

How the results depend on the processing

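With 2 sarcomas per group and a biological coefficient of variation of 62.5%, the standard errors of the ligands were wide (median 0.97 on the log2 scale, 0.64 over all genes). DESeq2 called 4 of the 29 ligands with an adjusted p and 754 of 18277 genes (4.13%). Without a filter, edgeR called 3 of 37 ligands (Ccl3, Ccl2 and Cxcl12) and 541 of 30859 genes (1.75%). With the filter, edgeR called 0 of either. The number of ligands higher in ATO ranged from 13 to 23, and their median from -0.18 to 1.77, when each sarcoma was left out, with the low end of both without ATO 2. The median of the receptors, -0.10 in edgeR with the filter, ranged from -0.66 to 1.32 in these fits and was 0.11 in DESeq2, 0.077 without a filter and 0.040 with a replicate block. With limma on log2(FPKM + 1), the median of all genes was -0.18 and that of the ligands 0.74. The log2 fold change of Ccl21a ranged from -3.79 to 4.49, that of Ppbp from -3.78 to 4.11 and that of Pf4 from -0.24 to 0.40 with each sarcoma left out. Pf4 was at -0.21 with limma. The labels give no shared litter or batch for equal replicate numbers, and the deviations of same-numbered sarcomas had a correlation of 5.04e-05. With a replicate block, 0 genes were called and 1165 had an unadjusted p under 0.05, 24 of 28 ligands were higher in ATO with a median of 0.75, and Ccl21a and Ppbp changed sign, to 0.16 and 0.14. The cause of these changes was not tested. The other ligands with full statistics kept their direction in all 9 alternatives. Their groups did not overlap by CPM, so their direction with any sarcoma left out was largely fixed in advance. It is therefore no separate support.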
